A study of Mus musculus with 4 samples.

Results

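The genes described are 10 growth arrest genes and targets of the transcription factor p53: *Trp53*, *Mdm2*, *Cdkn1a*, *Cdkn1b*, *Cdkn2c*, *Ccng1*, *Zmat3*, *Sesn2*, *Phlda3* and *Bax*. They were chosen by name, from what is known of their function, out of 21462 genes in the deposited table. Earlier results of these data were known when they were chosen. All 10 were detected well enough to be tested. Their RNA was measured in cells sorted from mouse lungs, in 2 control and 2 *Tet3* mutant libraries. None of the 10 differed between the groups past an adjusted or an unadjusted threshold, and the differences ran from -0.55 (*Sesn2*) to 0.38 (*Cdkn1a*) on the log2 scale. The intervals behind these differences were of unequal width. They confine *Cdkn1b*, *Mdm2*, *Ccng1* and *Zmat3* to within about 0.43 of no change, whereas *Trp53*, *Sesn2*, *Cdkn1a*, *Phlda3*, *Bax* and *Cdkn2c* could have differed by more than that in at least one direction.

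All animals were on the C57BL/6 background. In the mutant animals (labelled Mut), floxed *Tet3* was inactivated in adult life by tamoxifen through a Cre-ERT2 recombinase driven by the α-SMA promoter, and a tdTomato reporter at *ROSA26* marked the recombined cells. By the study's methods, control animals (labelled WT) lacked the floxed allele but carried the Cre allele, the reporter or both, so the alleles of each single control animal are not given. Live tdTomato+ cells were sorted after depletion of CD45+ and Ter-119+ cells. Each library is described as an independent animal, and the age at sorting is not given in the sources used here. The α-SMA promoter is active in any cell that makes smooth muscle actin, airway and vascular smooth muscle alike. TET3 oxidizes 5-methylcytosine in DNA to 5-hydroxymethylcytosine, and the study asked what its loss does to transcription in smooth muscle.

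p53, encoded by *Trp53*, is kept low in unstressed cells because MDM2 marks it for degradation. DNA damage and other stresses free it from MDM2, mostly through changes to the protein and not to its RNA, and it then switches on genes that stop the cell cycle, repair DNA, limit growth signalling or trigger apoptosis. *Mdm2* is itself a target, which closes a feedback loop. The cyclin-dependent kinase inhibitors encoded by *Cdkn1a* (p21), *Cdkn1b* (p27) and *Cdkn2c* (p18) hold cells in G1. p21 is the main arrest effector of p53, and p27 is known for keeping resting smooth muscle cells out of the cycle. The RNA of p53 targets is therefore often read as a sign of p53 activity, while the RNA of *Trp53* is not.

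Values are normalized counts, which are read counts that the authors scaled between libraries and rounded. Their sums were between 6805272 and 7164573, and the estimated reads behind them between about 6320000 and 7560000 per library. *Tet3*, the targeted gene, had 1847 and 1926 normalized counts in control against 1534 and 1444 in mutant cells, a log2 difference of -0.34 ± 0.10 (SE; limma, adjusted p = 0.681). Both mutant libraries were below both controls, but most *Tet3* RNA was still counted, and reads outside the deleted part say nothing about the deletion. All 10 smooth muscle markers examined exceeded 10 normalized counts in every library. They summed to 10762 and 11305 in control against 12895 and 11870 in mutant cells. Markers of other cells were counted in every library too. Sums, control against mutant, were 15119 and 14690 against 16142 and 15671 for 10 endothelial markers. They were 20836 and 17878 against 22689 and 19905 for 8 fibroblast markers, and 7198 and 6882 against 8102 and 8956 for 10 macrophage markers. For 10 alveolar type 2 markers they were 17366 and 25984 against 12067 and 15677. The libraries thus held RNA of several lung cell types, and in such mixtures fewer cells of a type and less RNA per cell cannot be told apart. Control replicate 2 stood apart: 13.7% of tested genes lay more than 1.5-fold outside the range of the other 3 libraries there, against 3.53% to 4.89% in the others. Among the 10 genes this held for *Sesn2* alone.

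p53 binds DNA through a pair of 10-base half-sites, and promoter sequence shows which of the genes carry such a site close to their start. RefSeq promoter windows of 300 bases on GRCm38.p6, from 250 before the start site, were matched for 9 of the genes (11 windows). The search was for the p53 half-site consensus, known by that name, which reads the same on both strands. A full site, taken as 2 half-sites with at most 1 base between them and at most 1 mismatch, was present in 3 of the 11 windows (27.3%), against 0.177% of all 32851 windows. A single half-site without mismatch was present in 5 of the 11 windows (45.5%), against 8.36% of all windows. The genes had been chosen largely as p53 targets, so this share is a property of the choice. The windows with a full site belong to *Cdkn1a*, *Ccng1* and *Bax*, and those sites are printed because they show the sequence that joins these genes. They lie at chr17:29090918-29090957 (plus strand), chr11:40755452-40755491 (minus strand) and chr7:45467080-45467120 (minus strand), each read 5′ to 3′ on the gene's strand. Capitals mark the 2 half-sites, with 1 base between them in *Bax*, and 10 bases of flank stand on each side.
Cdkn1a: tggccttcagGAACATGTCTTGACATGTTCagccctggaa
Ccng1: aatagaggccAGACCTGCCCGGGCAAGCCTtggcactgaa
Bax: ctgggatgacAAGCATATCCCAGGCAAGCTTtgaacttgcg

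The *Cdkn1a* site began 51 bases upstream of the first of its 2 listed start sites, the *Ccng1* site 195 bases upstream and the *Bax* site 212 bases upstream. Each of the 3 sites carried 1 mismatch to the consensus. *Mdm2* and *Trp53* windows held a half-site but no full site by this rule. The window of the other *Cdkn1a* start site held neither. No match there or in the windows of *Cdkn1b*, *Cdkn2c*, *Phlda3* and *Sesn2* says only that these letters are not in these windows. The 11 windows had a median of 62% G and C and 23 CpG dinucleotides, against 52.7% and 7 over all windows. These matches are descriptions of sequence, and p53 binding was not measured.

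*Trp53* (chromosome 11, 69580359 to 69591873, GRCm38) encodes p53 itself. It had 318 and 256 normalized counts in control against 361 and 322 in mutant cells. Both mutant values lay above both controls, although mutant replicate 2 exceeded control replicate 1 by only a few counts. The mean was 287.0 ± 43.8 in controls and 341.5 ± 27.6 in mutants (SD, n = 2 each), a log2 difference of 0.26 with a 95% interval of -0.18 to 0.69 (limma, adjusted p = 0.714). Without control replicate 2 the difference was 0.10.

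*Mdm2* (chromosome 10, 117688875 to 117710758), which encodes the ubiquitin ligase of p53, had 708 and 684 normalized counts in control against 748 and 678 in mutant cells. The highest and the lowest value were both in mutant libraries, so the mutant pair enclosed the controls. The log2 difference was 0.033 with an interval of -0.26 to 0.32 (limma, adjusted p = 0.946). Its sign turned to -0.038 without mutant replicate 1. The highest library exceeded the lowest by a factor of 1.10, a range narrower than in all but 6.24% of tested genes.

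*Cdkn1a* (chromosome 17, 29090976 to 29100727) encodes p21 and had the largest positive difference of the 10 genes. Its values were 181 and 280 in control against 267 and 321 in mutant cells. Control replicate 1 was low, and control replicate 2 lay between the mutant libraries. The log2 difference was 0.38 with an interval of -0.27 to 1.03 (limma, adjusted p = 0.715). It was 0.064 without control replicate 1 and 0.69 without control replicate 2, so the choice of control library decided its size. An antisense transcript overlaps 7.7% of the exon length of *Cdkn1a*, and whether strand was used in counting is not stated, so part of its count is uncertain.

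*Cdkn1b* (chromosome 6, 134920401 to 134925513), encoding p27, was nearly the same in every library. Its values were 752 and 781 in control against 753 and 775 in mutant cells. The highest value exceeded the lowest by a factor of 1.04, and only 0.498% of tested genes had a ratio this small or smaller. The log2 difference was -0.0046 with an interval of -0.27 to 0.26 (limma, adjusted p = 0.993). With equal library totals in place of the authors' scaling it was 0.044.

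*Cdkn2c* (chromosome 4, 109660876 to 109667189) encodes p18, an inhibitor of CDK4 and CDK6. It had 221 and 142 normalized counts in control against 192 and 213 in mutant cells. The controls enclosed the mutant values. The log2 difference of 0.19 (interval -0.47 to 0.85; limma, adjusted p = 0.85) became -0.13 without control replicate 2 and 0.51 without control replicate 1.

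**Figure D1:**
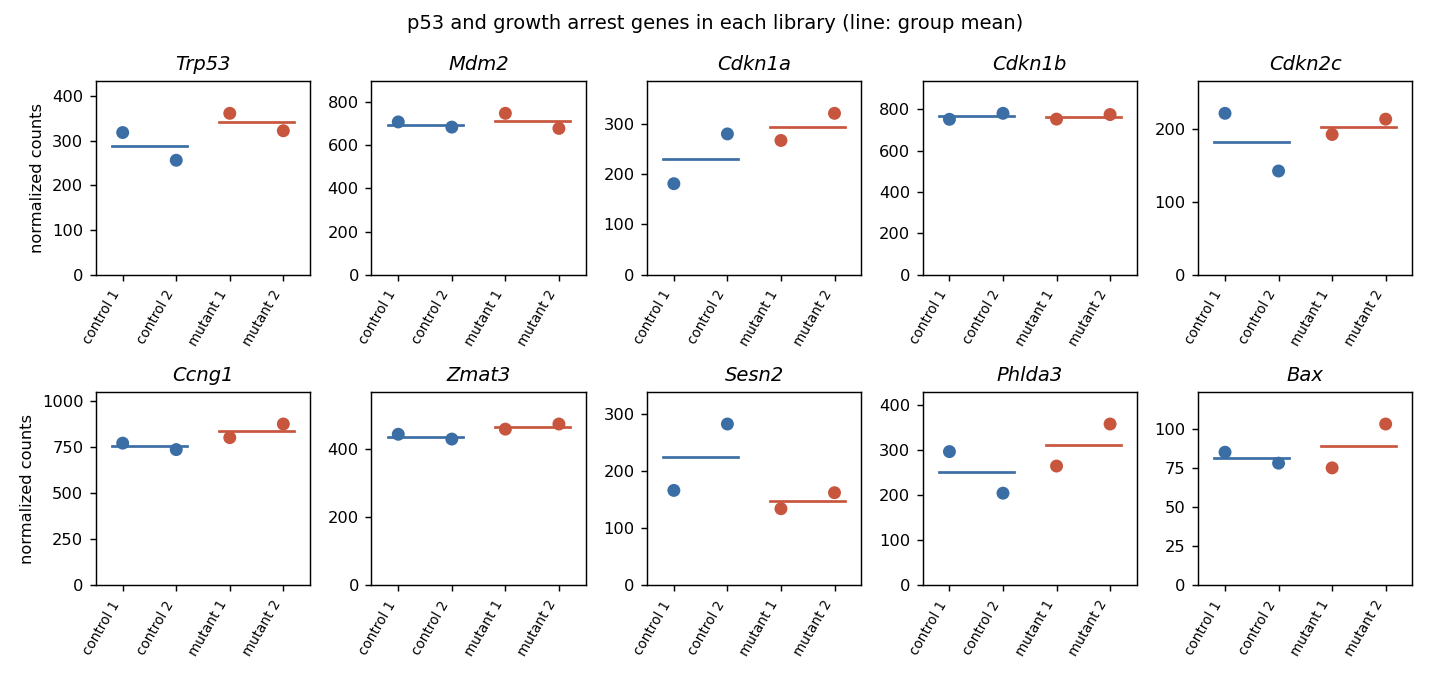
Normalized counts of each gene (vertical axis, from 0) in the 2 control (blue) and 2 *Tet3* mutant (red) libraries, with a line at each group's mean. *Cdkn1b* ran from 752 to 781, whereas *Sesn2* ran from 134 to 282 with its highest value in control replicate 2.

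*Ccng1* (chromosome 11, 40748552 to 40755311), which encodes cyclin G1, a target that acts back on the p53 and MDM2 loop, had 773 and 738 normalized counts in control against 803 and 877 in mutant cells. Both mutant libraries were higher. The log2 difference was 0.15 with an interval of -0.13 to 0.43 (limma, adjusted p = 0.727), and it stayed between 0.088 and 0.22 when any library was left out.

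*Zmat3* (chromosome 3, 32334792 to 32366014) encodes a zinc finger protein that binds RNA and takes part in growth suppression by p53. It had 442 and 428 normalized counts in control against 457 and 472 in mutant cells, again with both mutants above both controls. The step was small. The log2 difference was 0.094 with an interval of -0.20 to 0.39 (limma, adjusted p = 0.833).

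*Sesn2* (chromosome 4, 132492032 to 132510501) encodes sestrin 2, which restrains mTORC1 and is induced by p53 and by nutrient and oxidative stress. It had the largest difference of the 10 genes and the only one of size in the negative direction. Its values were 166 and 282 in control against 134 and 162 in mutant cells. The groups did not overlap, but control replicate 1 and mutant replicate 2 differed by only a few counts, and control replicate 2 carried the difference. The log2 difference was -0.55 with an interval of -1.32 to 0.22 (limma, adjusted p = 0.689). It was -0.93 without control replicate 1 and -0.17 without control replicate 2.

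*Phlda3* (chromosome 1, 135766119 to 135769136) encodes a small protein that blocks AKT activation. It had 296 and 204 normalized counts in control against 264 and 357 in mutant cells. Mutant replicate 1 lay between the controls. The log2 difference of 0.32 (interval -0.33 to 0.97; limma, adjusted p = 0.741) was 0.053 without control replicate 2 and 0.59 without control replicate 1.

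*Bax* (chromosome 7, 45461697 to 45466898), the pro-apoptotic pore-forming protein of the BCL2 family, was the gene with the fewest counts. It had 85 and 78 normalized counts in control against 75 and 103 in mutant cells, and the mutants enclosed the controls. The log2 difference of 0.11 (interval -0.57 to 0.79; limma, adjusted p = 0.923) became -0.12 without mutant replicate 2. A gene on the same strand overlaps 12.2% of its exon length, and reads there were left out by the authors' counting.

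**Figure D2:**
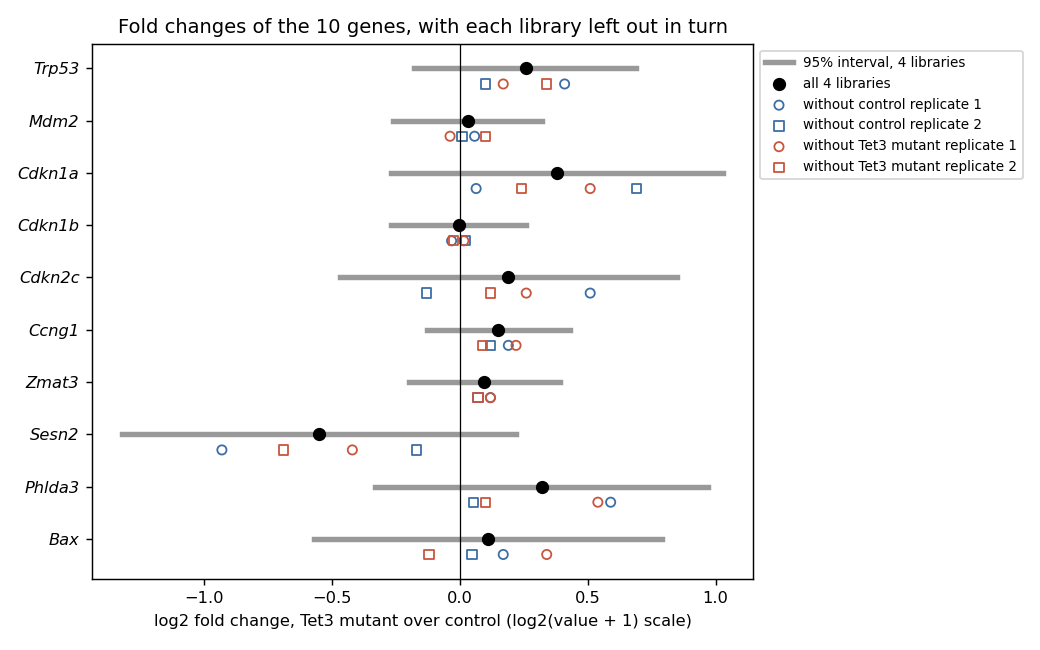
Log2 fold change of *Tet3* mutant over control (horizontal axis) for each gene, with all 4 libraries (black), its 95% interval from limma (grey bar), and with each library left out in turn (open symbols). All 10 intervals include 0, and the estimates of *Sesn2* run from -0.93 to -0.17 depending on the control library.

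Of the 10 genes, 8 had a difference above 0 and 2 below, with a median of 0.13 beside -0.0069 over all 16659 genes tested. None had an adjusted p under 0.05 in limma, as for every gene tested (0% called), and 0 had an unadjusted p under 0.05, where 6.68% of all genes did. In 3 genes (*Trp53*, *Ccng1*, *Zmat3*) both mutants were above both controls, beside 19.6% of all genes. In 1 gene, *Sesn2*, both were below, beside 19.5% of all genes. Non-overlap in either direction was thus seen in 4 of 10 genes against 39.0% of all genes, a share near the background. With 2 libraries a group, the smallest p that an exact permutation test (two-sided) of 1 gene allows is 0.33.

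How far each value can be trusted followed the spread between replicates. The SD between replicates on the log2 scale was 0.034 for *Cdkn1b* and 0.033 for *Zmat3*. Counting noise alone, at the estimated number of reads, would give 0.052 and 0.068, so these libraries differed no more than the sampling of reads would make them. *Mdm2* (0.075 against a counting SD of 0.054) and *Ccng1* (0.072 against 0.051) were also close to that limit. *Trp53* was further off, at 0.18 against 0.082. *Sesn2* (0.40 against 0.11), *Cdkn1a* (0.34 against 0.091), *Phlda3* (0.34 against 0.088) and *Cdkn2c* (0.33 against 0.11) varied well beyond counting noise. For these 4 genes differences between libraries of the same group, and not depth, set the width of the interval. *Bax*, with the fewest reads, had 0.23 against 0.16. The median over the 10 genes was 0.21, beside 0.20 over all genes tested.

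**Figure D3:**
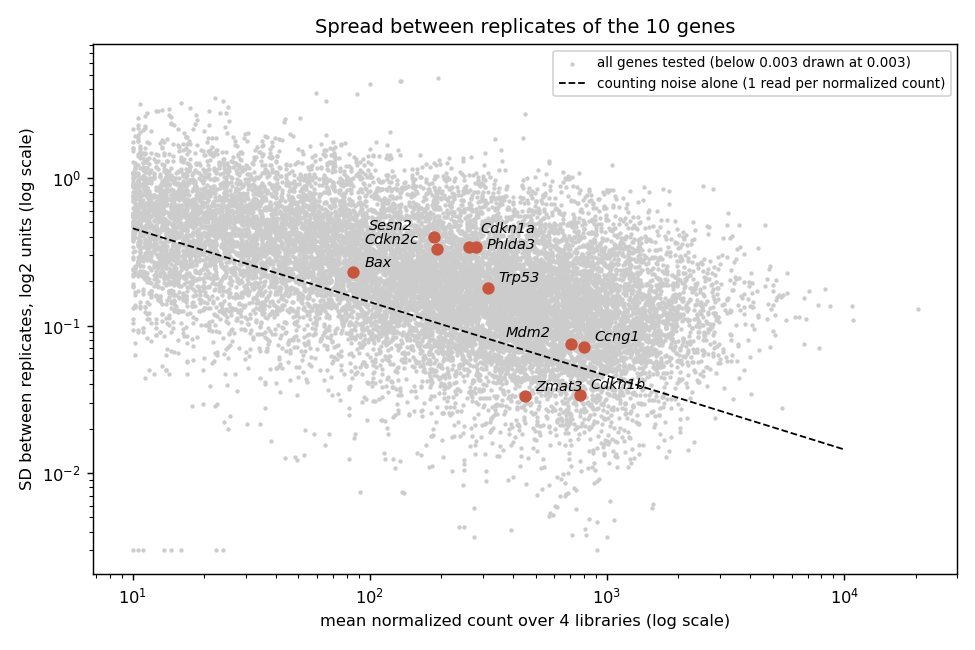
SD between replicates in log2 units (vertical axis, log scale) against the mean normalized count (horizontal axis, log scale), for the 10 genes (red) and all genes tested (grey), with the spread that counting noise alone would give (dashed). *Cdkn1b* and *Zmat3* lie below the line at 0.034 and 0.033, and *Sesn2* lies highest of the 10 at 0.40.

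Per kilobase of exon, the mean level over the 4 libraries was highest for *Ccng1*, at 227 normalized counts per kb, followed by *Phlda3* at 180, *Cdkn1b* at 168 and *Mdm2* at 139. *Trp53* (77.7), *Cdkn1a* (73.8) and *Cdkn2c* (71.5) formed a middle group, and *Bax* (54.1), *Sesn2* (53.5) and *Zmat3* (39.3) were lowest. Between neighbours in this order the libraries overlapped except at 2 steps. *Cdkn1b*, at 165 to 172 per kb, was above *Mdm2*, at 133 to 147, which was above *Trp53*, at 63.3 to 89.2. p27 RNA was thus more abundant per kb than p21 RNA, with a ratio of *Cdkn1a* to *Cdkn1b* of 0.308 and 0.459 in control against 0.454 and 0.531 in mutant cells. The ratio of *Mdm2* to *Trp53* per kb was 1.77 and 2.13 in control against 1.65 and 1.68 in mutant cells. The mutant ratios were both below the controls. The ratio of *Mdm2* to its paralogue *Mdm4* went the other way, at 1.6 and 1.48 in control against 1.64 and 1.89 in mutant cells. How often ratios of other gene pairs fail to overlap was not computed. The ratio of *Bax* to *Bcl2*, its anti-apoptotic counterpart, overlapped between groups, at 0.721 and 1.27 in control against 0.59 and 0.922 in mutant cells.

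Paralogues give a view of whether related genes moved with the 10. *Mdm4*, the partner of MDM2, had 1289 and 1345 normalized counts in control against 1328 and 1043 in mutant cells, with groups that overlapped. Among the sestrins, *Sesn1* (565 and 475 in control, 578 and 599 in mutant cells) was higher in both mutants, opposite to *Sesn2*, and *Sesn3* (854 and 1092 in control, 856 and 780 in mutant cells) overlapped. Neither difference passed an unadjusted p of 0.05. The CDK inhibitor p57, encoded by *Cdkn1c*, counted 203 and 245 in control cells against 277 in each of the mutant libraries. *Cdkn2d* (p19) had 110 and 105 in control against 119 and 128 in mutant cells. Both were higher in both mutants, by 0.31 and 0.20 on the log2 scale (limma, adjusted p = 0.689 and 0.792). *Bak1*, which acts beside BAX, had 162 and 163 in control against 181 and 233 in mutant cells. *Zmat4* was lower in both mutants, with 74 and 60 normalized counts in control against 32 and 44 in mutant cells (log2 difference -0.81; limma, adjusted p = 0.681). *Ccng2*, *Phlda1*, *Zmat1* and *Zmat2* overlapped between groups with log2 differences between -0.26 and 0.16, and *Phlda2* was below the minimum for testing. Of 11 paralogues tested, 0 had an unadjusted p under 0.05, where 6.68% of all genes did, and their median was 0.027. Their groups did not overlap in 5 of the 11 (4 higher and 1 lower in mutants), 45.5% beside 39.0% of all genes, a share near the background.

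Outside the 10 genes, 37 of 38 further p53 targets were tested. Of these, 14 were above 0 and 23 below, with a median of -0.058, beside 0.13 for the 10 genes. Their groups did not overlap in 9 genes with higher and 8 with lower mutant values, 45.9% of those tested beside 39.0% of all genes. One target in each direction had an unadjusted p under 0.05, which makes 5.41% beside 6.68% of all genes. *Polk*, a DNA polymerase that copies across damaged bases, had 259 and 249 normalized counts in control against 331 and 320 in mutant cells (log2 difference 0.36; limma, adjusted p = 0.681). *Dram1*, a lysosomal membrane protein of p53-linked autophagy, had 1477 and 2144 in control against 917 and 1319 in mutant cells (-0.69; limma, adjusted p = 0.681). Without control replicate 2, or without mutant replicate 1, that difference was -0.43. Whether apoptotic targets differed from each other was not tested, and those given here were chosen after their values were seen. *Bbc3* (PUMA), at 124 and 207 in control against 142 and 152 in mutant cells, and *Pmaip1* (NOXA), at 204 and 139 in control against 255 and 191 in mutant cells, overlapped between the groups. The death receptor gene *Fas* (415 and 305 in control, 535 and 439 in mutant cells), *Apaf1* (466 and 384 in control, 503 and 489 in mutant cells) and *Pidd1* (22 and 20 in control, 26 and 30 in mutant cells) had higher counts in both mutants, none with an unadjusted p under 0.05. *Perp*, *Ei24*, *Aen* and *Tnfrsf10b* overlapped between the groups, with log2 differences of -0.50, -0.13, -0.067 and -0.0069. The p53 signaling pathway of the deposited KEGG annotation held 7 of the 10 genes. Of its other genes, 56 were tested, with a median of 0.046. An unadjusted p under 0.05 was found for 3 of them (*Ccnd2*, *Trp73* and *Rprm*), 5.36% beside 6.68% of all genes. *Rprm*, a p53-linked arrest gene taken up only through that annotation and after its values were seen, had 65 and 145 normalized counts in control against 5 and 32 in mutant cells (-2.80; limma, adjusted p = 0.681). With so few counts in mutant replicate 1, its log2 difference was -1.57 without that library and -4.03 without mutant replicate 2.

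Among 21 tested genes of the p53 family and its modifiers, 8 were above 0 and the median was -0.10. *Trp73*, which encodes the p53 relative p73, had the largest difference. It had 51 and 55 normalized counts in control against 136 and 103 in mutant cells, with a log2 difference of 1.15 ± 0.26 (SE; limma, adjusted p = 0.681), and it stayed between 0.95 and 1.34 when any library was left out. The ratio of *Trp73* to *Trp53* per kb was 0.117 and 0.157 in control against 0.275 and 0.234 in mutant cells. p73 is also known as a regulator of multiciliated airway cells. The summed level of 7 ciliated cell markers was 2242 and 2414 in control against 4765 and 3050 in mutant cells. All 7 markers were higher in both mutants, beside 19.6% of all genes tested, and none was at 0. The part of ciliated cells in the *Trp73* difference was not tested. *Prkdc*, the DNA-dependent protein kinase that signals DNA breaks, had 867 and 816 normalized counts in control against 701 and 660 in mutant cells (-0.31; limma, adjusted p = 0.681).

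Genes of the cell cycle showed no loss or gain past the adjusted threshold. Of 18 G1 cyclins, CDKs, pocket proteins and E2F factors, 11 were above 0 with a median of 0.051. *Ccnd2* (cyclin D2) alone had an unadjusted p under 0.05, which makes 5.56% beside 6.68% of all genes. It had 1169 and 1013 normalized counts in control against 1384 and 1319 in mutant cells. Of 16 proliferation genes, 11 were above 0, with a median of 0.29 that fell to -0.036 without mutant replicate 2 and reached 0.59 without mutant replicate 1. The most abundant of them per kb went in opposite directions. *Mki67* had 890 and 762 normalized counts in control against 915 and 1047 in mutant cells, while *Pcna*, a replication clamp that is also a p53 target, had 256 and 232 in control against 193 and 211 in mutant cells. *Cdkn2a*, a marker of senescence, was below the minimum for testing, with 7 and 3 in control against 13 and 5 in mutant cells. Of 15 tested senescence and secretory genes, 13 were above 0 with a median of 0.19. Below 0 were 6 of the 15 without control replicate 2 and 5 without mutant replicate 1. The matrix protease *Mmp3* (517 and 526 in control, 846 and 819 in mutant cells) and the protease inhibitor *Timp1* (63 and 31 in control, 86 and 107 in mutant cells) had unadjusted p under 0.05, with log2 differences of 0.67 and 1.10 (limma, adjusted p = 0.681 for both). These 2 make 13.3% of the 15 genes, beside 6.68% of all genes. The *Timp1* difference was 0.60 without control replicate 2. The other CDK inhibitors, 3 of 4 tested, were all above 0 with a median of 0.20. They were *Cdkn2b*, at only 0.007, and the paralogues *Cdkn1c* and *Cdkn2d* described above. The median ran from 0.15 to 0.25 when any library was left out. Without control replicate 2, or without mutant replicate 2, 1 of the 3 was below 0.

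**Figure D4:**
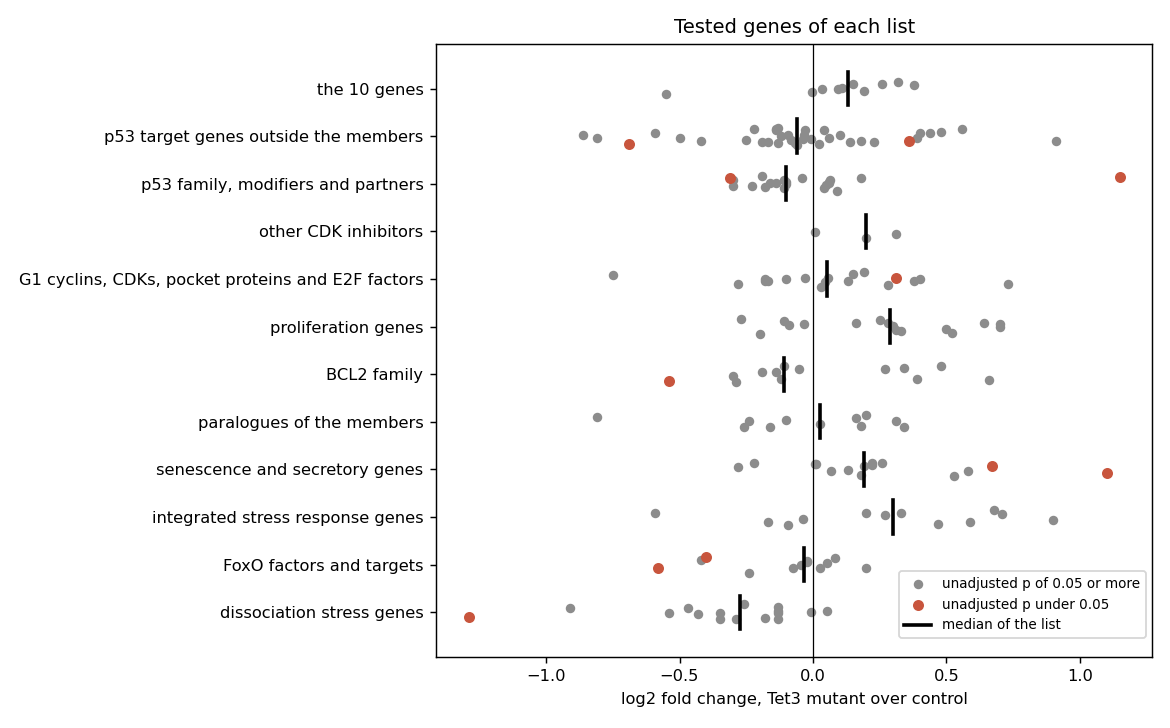
Log2 fold change of *Tet3* mutant over control (horizontal axis) for every tested gene of each list (rows), with the list's median as a bar and genes of unadjusted p under 0.05 in red. The 10 genes have a median of 0.13 and no red point, and *Trp73* lies at 1.15 in the row of the p53 family.

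Other inputs to these genes were also surveyed. *Sesn2* is a target of the integrated stress response, and of its 12 genes 8 were above 0 with a median of 0.30. The groups were apart in 7 of the 12 (58.3%), beside 39.0% of all genes, with 5 higher and 2 lower in both mutants. The part of this response in the *Sesn2* values was not tested. The factors *Atf4* (822 and 898 in control, 874 and 741 in mutant cells) and *Atf5* (518 and 533 in control, 614 and 590 in mutant cells) did not reach an unadjusted p of 0.05. *Cdkn1b* is a target of FoxO factors. Of 12 FoxO factors and targets, 4 were above 0 with a median of -0.033. *Irs2* (1115 and 1514 in control, 809 and 934 in mutant cells) and *Klf2* (647 and 703 in control, 474 and 550 in mutant cells) had unadjusted p under 0.05. These 2 make 16.7% of the 12 genes, beside 6.68% of all genes. The log2 difference of *Irs2* went from -0.58 to -0.36 without control replicate 2. In the BCL2 family 5 of 13 genes were above 0 with a median of -0.11. *Bcl2l11* (BIM), which acts upstream of BAX, had 471 and 672 normalized counts in control against 408 and 368 in mutant cells (-0.54; limma, adjusted p = 0.681, and -0.28 without control replicate 2). Genes induced by tissue dissociation, an early response of cells to stress, had differences below 0 in 15 of 16 genes with a median of -0.28. Both mutants were below both controls in 6 of them (37.5%), beside 19.5% of all genes, and above both controls in 0. Without mutant replicate 2 the median was -0.083 with 11 of 16 below 0. *Fosb*, the only one with an unadjusted p under 0.05 (6.25%, beside 6.68% of all genes), had 848 and 1162 normalized counts in control against 646 and 256 in mutant cells. Its log2 difference of -1.29 was -0.62 without mutant replicate 2.

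The order of the libraries for *Sesn2*, lowest in mutant replicate 1, then mutant replicate 2, control replicate 1 and control replicate 2, was also the order of the summed alveolar type 2 markers. That sum was 17366 and 25984 in control against 12067 and 15677 in mutant cells. Of these markers, 9 of 10 were lower in both mutants, beside 19.5% of all genes tested, and none was at 0. *Dram1*, *Irs2*, *Klf2* and *Rprm* had the same order of libraries, as had 1311 tested genes in all (7.87%). Of the 10 genes only *Sesn2* had it, and 4 of the 37 other p53 targets did. In all, 14 marker lists were looked at in the same 4 libraries. The part of alveolar cells in the *Sesn2* and *Dram1* values was not tested.

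**Figure D5:**
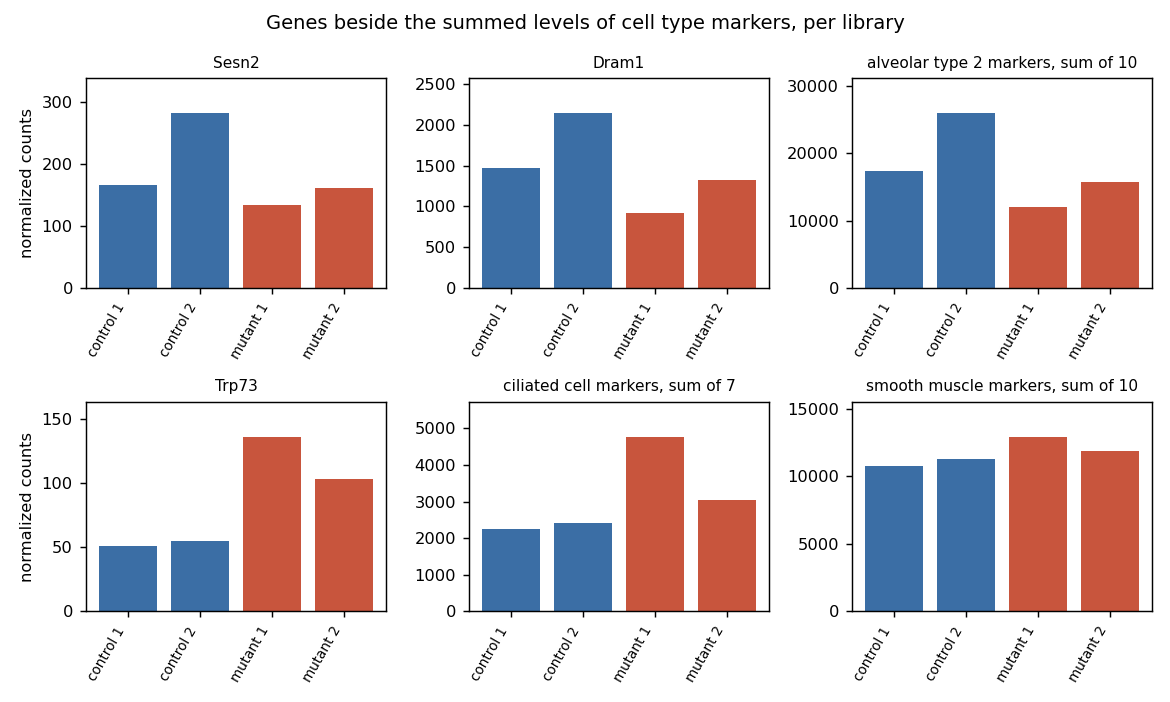
Normalized counts per library (bars, vertical axes from 0) of *Sesn2*, *Dram1* and *Trp73* beside the summed markers of alveolar type 2, ciliated and smooth muscle cells, control in blue and mutant in red. *Sesn2*, *Dram1* and the alveolar type 2 sum are highest in control replicate 2, and *Trp73* and the ciliated sum are highest in mutant replicate 1.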

How the data were processed

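RNA of sorted lung smooth muscle cells was depleted of ribosomal RNA and made into stranded total RNA libraries. By the study's methods, reads were trimmed, aligned with STAR to GRCm38 and counted over exons with featureCounts, without reads mapping to several genes or places, and then scaled between libraries by DESeq2. What was deposited is a score, namely normalized counts that the authors rounded to whole numbers, and not raw counts. Coordinates are those of the deposited table.

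Log2(value + 1) was tested with limma 3.58.1 (R 4.3.3, mean-variance trend) over all 16659 genes with a mean of at least 10, with Benjamini-Hochberg adjustment. Tests were two-sided, and intervals are 95%. The named genes are all 10, *Tet3*, every paralogue and, of each list, up to 4 genes with an unadjusted p under 0.05, or otherwise the 2 most abundant per kb. Members and lists were chosen with earlier results of these data known, and the KEGG list, ratios and library orders after values were seen. Scaling factors, hence reads and counting noise, were estimated from the steps between low values, a method checked on simulated data, as was the limma fit. Counting noise ignores PCR duplicates. The limma p-values set the difference between the groups against the spread between replicates, which limma draws toward a trend over all genes. They rest on these 4 libraries alone. The deposited annotation columns gave KEGG pathways.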

Additional observations from a re-analysis of the deposited data

How the results depend on the processing

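With 2 libraries a group, single libraries limit most values. No gene had an adjusted p under 0.05 in limma under the settings tried, except 1 gene without the mean-variance trend; unadjusted, 1112 genes passed, with 57.4% of them higher in mutants, against 69.2% with equal library totals and 42.8% of 1637 under a replicate block. Same-numbered libraries correlated weakly (Pearson 0.13, Spearman 0.12 across genes) and share only a number. No gene passed the adjusted threshold with or without the block, so the unchanged adjusted calls of the 10 genes say nothing about pairing. Of 37 named genes, 29 kept their direction in all 13 settings. *Cdkn1b* turned to 0.044 with equal totals and 0.03 with upper-quartile scaling. Medians moved to -0.075 (other p53 targets) and 0.23 (integrated stress response) at a mean of at least 50, and to -0.036 (paralogues) with no filter. Equal totals gave -0.0098 for other p53 targets, 0.10 for G1 genes, 0.075 for paralogues and 0.35 for the stress response, and upper-quartile scaling -0.023, 0.086, 0.062 and 0.34. Leaving out 1 library gave 0 to 1 of the 10 genes with an unadjusted p under 0.05 (*Sesn2* without control replicate 1, *Cdkn1a* without control replicate 2). Their median then ran from 0.05 to 0.19. List medians ran from -0.073 to -0.026 (other targets), -0.13 to -0.013 (p53 family), 0.011 to 0.10 (G1), -0.036 to 0.59 (proliferation), -0.20 to 0.091 (BCL2), 0.012 to 0.075 (paralogues), 0.091 to 0.26 (senescence), 0.16 to 0.25 (stress response) -0.13 to 0.0026 (FoxO) and -0.40 to -0.083 (dissociation). Single genes ran from -0.032 to 0.023 (*Cdkn1b*), -0.13 to 0.51 (*Cdkn2c*), -0.038 to 0.10 (*Mdm2*), -0.12 to 0.34 (*Bax*), -0.065 to 0.12 (*Ccng2*), -0.26 to 0.061 (*Phlda1*), -0.34 to 0.012 (*Mdm4*) and -0.21 to 0.025 (*Atf4*). The causes were not tested.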
